A study of Mus musculus with 4 samples.

Results

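Transcripts of 10 circadian clock genes were followed among the 32285 genes counted in single cells of mouse cortex after stroke. The genes were chosen by name as core clock and clock output genes: Per1, Per2, Per3, Arntl (the gene for BMAL1), Clock, Dbp, Tef, Nr1d1, Nr1d2 and Ciart. They held 25556 unique molecular identifiers (UMIs, counts of captured transcripts) over all cells kept. The cells came from male C57BL/6N mice aged 10 months, which received an antibody for 10 weeks after surgery. A sham surgery group received an isotype control antibody. The 3 other groups had a stroke by distal middle cerebral artery occlusion (dMCAO) and received isotype control antibody, anti-VCAM1 or anti-VLA4. VCAM1 is an endothelial adhesion molecule, and the integrin VLA4 on leukocytes is its receptor. Each group was 1 library from tissue pooled over 4 to 5 mice, taken from the lesion core and about 2 mm of cortex around it and stained for CD31 and CD45. No replicate check of any difference was possible, and intervals are exact 95% intervals, except those of differences between classes, which use a normal approximation, and all cover counting error only. The time of day at which tissue was taken is not given in the sources used here.

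In the molecular clock, CLOCK and BMAL1 bind E-box sequences and drive the Per, Nr1d, Dbp, Tef and Ciart genes, whose products then restrain the pair or pass the rhythm on. The nuclear receptors REV-ERB alpha and beta, encoded by Nr1d1 and Nr1d2, repress Arntl through ROR elements, so that Arntl transcripts peak at about the opposite time of day to the E-box genes. Stress signals and glucocorticoids also induce Per1 within a short time. Such clocks run in endothelial cells, microglia and astrocytes.

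RefSeq promoter windows (build GRCm38.p6) were found for 9 of the 10 genes, 14 windows in all, and the 250 bases before each start were searched for 7 motifs on both strands. The motifs were CACGTG (the E-box), CACGTT (the E'-box), TTATGTAA and TTACGTAA (D-boxes, bound by DBP and TEF), GTAGGTCA and CTGGGTCA (ROR elements) and TGACGTCA (the CRE). None of these motifs overlaps another in the windows shown. A motif was present in 6 windows of 5 genes. CACGTG occurred in 6.02% of all 32851 windows of the same length, CACGTT in 3.85%, TTATGTAA in 0.819%, TTACGTAA in 0.113%, GTAGGTCA in 0.517%, CTGGGTCA in 1.19% and TGACGTCA in 1.55%. The 5 windows below show how the clock genes carry these elements, with motif letters in capitals and the gene's own strand written 5′ to 3′. They are Ciart (chr3:95882229-95882478, minus strand, 3 E-boxes), Per1 (chr11:69098699-69098948, plus strand, 1 E-box), the second Tef start (chr15:81811164-81811413, plus strand, 1 E-box), Per3 (chr4:151044666-151044915, minus strand, 2 D-boxes) and Nr1d1 (chr11:98775378-98775627, minus strand, 1 E'-box read on the other strand). By the GENCODE M21 annotation of the same build, the Per3 and Nr1d1 windows lie before the gene, the last bases of the Ciart window reach into its first exon, and the Per1 and Tef windows lie in introns before internal starts, the Per1 window ending at an exon.
Ciart: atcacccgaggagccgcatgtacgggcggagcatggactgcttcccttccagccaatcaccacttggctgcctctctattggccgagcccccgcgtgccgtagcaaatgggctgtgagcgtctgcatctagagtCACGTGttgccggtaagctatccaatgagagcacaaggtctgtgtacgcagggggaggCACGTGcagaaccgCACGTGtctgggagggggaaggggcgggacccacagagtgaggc
Per1: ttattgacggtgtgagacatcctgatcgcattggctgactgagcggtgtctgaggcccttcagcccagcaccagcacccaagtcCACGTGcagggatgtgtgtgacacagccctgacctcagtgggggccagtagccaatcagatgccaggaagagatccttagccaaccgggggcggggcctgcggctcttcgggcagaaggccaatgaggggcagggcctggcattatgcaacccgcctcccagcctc
Tef: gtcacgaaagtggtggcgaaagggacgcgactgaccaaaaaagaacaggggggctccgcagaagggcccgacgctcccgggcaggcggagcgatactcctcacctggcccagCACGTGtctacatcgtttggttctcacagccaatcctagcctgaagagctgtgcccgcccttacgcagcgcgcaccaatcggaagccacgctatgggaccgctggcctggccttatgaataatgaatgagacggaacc
Per3: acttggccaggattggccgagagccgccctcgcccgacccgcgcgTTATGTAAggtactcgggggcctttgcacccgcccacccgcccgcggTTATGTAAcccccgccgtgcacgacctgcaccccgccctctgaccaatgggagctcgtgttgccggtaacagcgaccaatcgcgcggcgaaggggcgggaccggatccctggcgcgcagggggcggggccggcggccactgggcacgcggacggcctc
Nr1d1: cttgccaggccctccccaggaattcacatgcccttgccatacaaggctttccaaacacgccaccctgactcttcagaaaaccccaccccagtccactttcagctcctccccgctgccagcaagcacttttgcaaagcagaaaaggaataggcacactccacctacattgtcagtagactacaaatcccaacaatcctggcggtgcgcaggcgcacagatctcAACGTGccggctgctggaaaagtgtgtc

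Arntl held none of the motifs before its start, but a ROR element GTAGGTCA lay after the start of its second window, inside the gene's first exon (chr7:113207529-113207558, plus strand), in capitals here. Within the full windows of 300 bases, GTAGGTCA occurred in 0.621% of all windows. Dbp, Nr1d2 and Clock held none of the 7 motifs in their windows. A match is a description of the letters only.
Arntl: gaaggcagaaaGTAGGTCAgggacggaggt

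The libraries held 1516 (sham isotype), 2832 (stroke isotype), 4662 (anti-VCAM1) and 6209 (anti-VLA4) kept cells, with 9892316 to 33386331 UMIs and a median of 4516.5 to 5466 UMIs per cell. The sham isotype and stroke isotype libraries shared 59 cell barcodes, and every other pair shared 1 to 8. Clusters were named only from marker genes, as endothelial-like (5602 cells), microglia-like (6460) and T-cell-like (634), and each of these had at least 50 cells in every library. All 12 endothelial markers had UMIs in the endothelial-like class of every library, and all 10 microglial markers in the microglia-like class. Cluster 6 (1048 cells, led by Gkn3 and Nebl) and cluster 11 (448 cells, led by the MHC class II genes H2-Eb1 and H2-Ab1) stayed unnamed. All 12 endothelial markers were raised in cluster 6 over clusters of other types. It missed the endothelial name because a marker of another class, and none of its own, stood among its 10 leading genes. The makeup of the classes differed between libraries. Cluster 0 held 246 of 458 endothelial-like cells in the sham isotype library and 655 of 2553 in the anti-VLA4 library, and cluster 4, low in Malat1, held 37 and 657 of them. Among microglia-like cells, cluster 2 held 467 of 1484 in the stroke isotype library and 276 of 2463 in the anti-VLA4 library, and cluster 9 held 120 and 484. Levels are UMIs summed over a class and scaled to all UMIs of that class as CPM, the usual depth-scaled count. Ratios are log2 ratios of CPM with 1 CPM added, so they understate differences of low genes, and their intervals are computed on the counts without that addition.

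The clock genes were set at different levels in endothelial-like and microglia-like cells. Arntl stood at 70.7 to 101 CPM in the 4 endothelial-like libraries and at 26.4 to 29.4 CPM in the microglia-like ones. Nr1d1 stood at 19.3 to 34.9 CPM against 1.55 to 3.16 CPM. Per1 lay the other way, with 27.9 to 30.4 CPM in endothelial-like and 58.7 to 95.1 CPM in microglia-like cells, and Tef likewise with 17.3 to 28.4 CPM against 34.9 to 43.6 CPM. For these 4 genes the ranges over the 4 libraries did not overlap between the classes. Clock differed less, at 116 CPM (112 to 120) against 99.9 CPM (96.7 to 103) with the libraries summed, though its ranges of 108 to 151 and 97.6 to 102 CPM did not overlap either. Per3, Dbp, Nr1d2 and Ciart had overlapping ranges. Per2 stood low in both, and its 0.998 to 1.42 CPM in endothelial-like cells lay below its 2.01 to 3.32 CPM in microglia-like cells on few UMIs (35 and 91).

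Smaller classes are given side by side, from summed libraries. In astrocyte-like cells (101 cells) Dbp stood at 42.5 CPM (25.2 to 67.2), Tef at 94.4 CPM, Nr1d1 at 42.5 CPM and Per3 at 51.9 CPM, and in pericyte-like cells (170 cells) Dbp stood at 35.0 CPM and Nr1d1 at 52.9 CPM (40.3 to 68.2). These were the highest levels of Dbp and Nr1d1 among the classes of at least 100 cells. Nr1d1 was low in immune cells, at 2.39 CPM in microglia-like cells, 3.08 CPM (10 UMIs) in 634 T-cell-like cells, 1 UMI in 174 B-cell-like cells and 1 UMI in cluster 11. Of the 10 T-cell-like UMIs, 5 came from the 45 cells of cluster 23. Ciart had 0 UMIs in cluster 11, which allows up to 0.745 CPM in the summed libraries when 3 counts are taken as the limit, or 0.916 CPM by the exact interval.

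**Figure D1:**
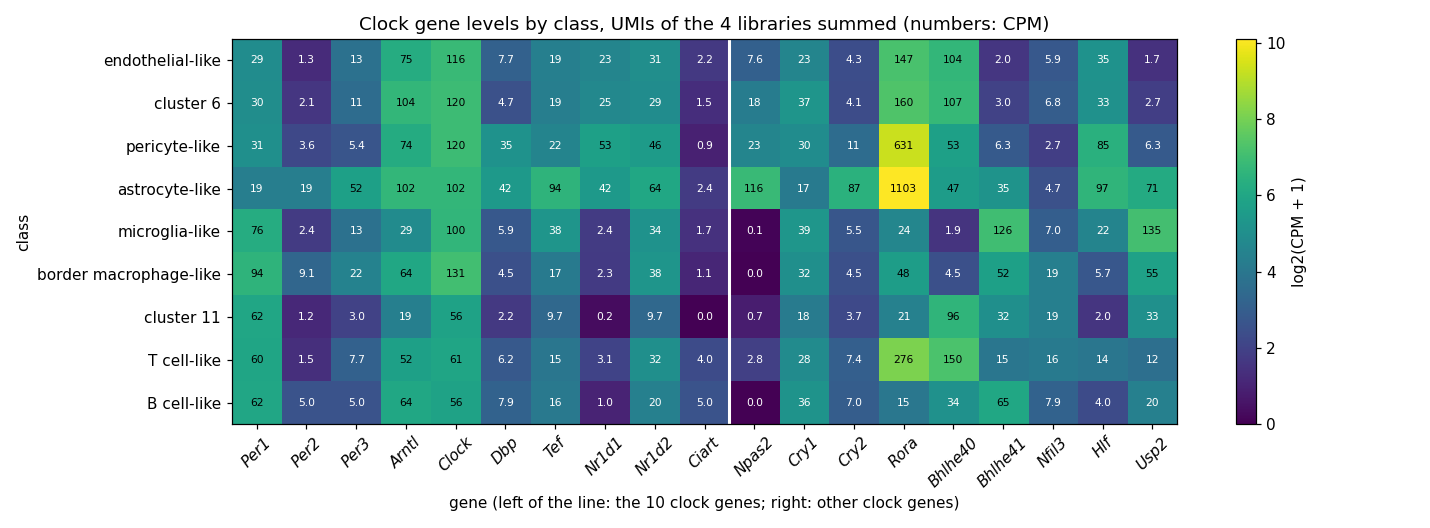
Levels (CPM, printed in each cell, colour on a log2 scale) of the 10 clock genes, left of the white line, and of 9 other clock genes by class, with the 4 libraries summed. Nr1d1 is 23 in endothelial-like and 2.4 in microglia-like cells, while Per1 is 29 and 76.

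Other clock genes divided the classes further. A list of 19 other clock genes was read, and Csnk1e, Usp2, Bhlhe41, Rora and Btrc were among those with the most UMIs in the 2 main classes. Usp2, a deubiquitinase acting on clock proteins, stood at 128 to 145 CPM in microglia-like and at 0.499 to 4.22 CPM in endothelial-like libraries. Bhlhe41 (DEC2, an E-box repressor) stood at 112 to 149 CPM against 0 to 3.80 CPM. Its paralogue Bhlhe40 (DEC1) lay the other way, at 1.89 CPM in microglia-like and 104 CPM in endothelial-like cells of the summed libraries, and Npas2, a paralogue of Clock, at 0.0788 against 7.63 CPM. These last 2 genes were chosen after their values were seen. Rora, an activator at ROR elements, stood at 139 to 182 CPM in endothelial-like and 22.4 to 26.4 CPM in microglia-like libraries. Usp2 and Bhlhe41 in endothelial-like cells were highest in the stroke isotype library, at 4.22 and 3.80 CPM. Summed microglial markers in those cells were highest there too, at 397 CPM against 80.8 in the sham isotype, 154 in the anti-VCAM1 and 144 in the anti-VLA4 library, and their part was not tested.

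Stroke isotype was compared with sham isotype to ask how the clock genes stood late after stroke. In endothelial-like cells, all 8 genes with at least 20 UMIs over the 2 libraries had a log2 ratio below 0, with a median of -0.31 beside -0.017 over all 10231 genes so measured. Dbp and Nr1d2 were at least 1.5-fold lower, 2 of 8, where 4.55% of all genes were at least 1.5-fold lower and 5.41% at least 1.5-fold higher. In microglia-like cells 0 of 10 passed 1.5-fold in either direction, where 2.93% of all genes were lower and 3.31% higher by that much.

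Dbp, an output gene of the clock that encodes a D-box activator, stood at 18.5 CPM (37 UMIs) in sham isotype, 8.02 CPM (19 UMIs) in stroke isotype, 7.56 CPM in anti-VCAM1 and 6.05 CPM in anti-VLA4 endothelial-like cells. The sham isotype library was high and the 3 stroke libraries did not differ beyond their intervals. Its stroke ratio was -1.11 (-2.08 to -0.37), a 2.16-fold difference. The call rested on few cells: the 10 highest cells held 56.8% of the sham isotype UMIs. When cells were classed one by one from their markers, not by cluster, the ratio was -0.55, under 1.5-fold, with cluster 6 added to the class it was -0.69, and without cells of shared barcodes it was -1.16. In cluster 6 alone, Dbp had 3 UMIs in sham isotype and 8 in stroke isotype. Microglia-like cells had 5.35 to 7.01 CPM over the 4 libraries, with no neighbouring pair outside its interval.

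Nr1d2, which encodes REV-ERB beta, stood at 57.9 CPM (116 UMIs) in sham isotype endothelial-like cells, then 34.6, 30.6 and 26.0 CPM in stroke isotype, anti-VCAM1 and anti-VLA4. The sham isotype library stood apart from all 3 stroke libraries, which overlapped as neighbours. The stroke ratio was -0.72 (-1.17 to -0.32), and -0.73 without cells of shared barcodes. In microglia-like cells the same order held over a narrower range, 41.9, 36.6, 32.7 and 30.8 CPM, with a stroke ratio of -0.19 (-0.44 to 0.060). The difference between the classes in stroke ratio, -0.55, had an interval that excluded 0 (-1.02 to -0.072).

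Its relative Nr1d1 (REV-ERB alpha) stood in the same order of libraries in endothelial-like cells without passing 1.5-fold, at 34.9, 27.9, 25.5 and 19.3 CPM, and the stroke ratio was -0.32 (-0.83 to 0.18). In cluster 6 it stood at 64.0 CPM (33 UMIs) in sham isotype and 14.5 CPM (7 UMIs) in stroke isotype, then 22.3 and 23.3 CPM. In microglia-like cells it had 8 to 32 UMIs per library. Nr1d1 overlaps Thra on the opposite strand, and whether counting used strand is not given in the sources used here. Opposite-strand genes also overlap Dbp (Sphk2), Arntl (Gm45355), Tef (Gm17597) and Ciart (C920021L13Rik). Clock overlaps Ube2n-ps1 and Gm43658 on its own strand.

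Per3 and Tef in endothelial-like cells were also highest in sham isotype. Per3, a member of the PER family, stood at 20.0, 15.6, 10.6 and 12.3 CPM, and Tef, a D-box activator like DBP, at 28.4, 25.8, 18.9 and 17.3 CPM. No neighbours in either order differed beyond their intervals, while the highest and the lowest library did, by 0.85 (0.34 to 1.45) and 0.69 (0.27 to 1.15). Per3 shares its locus with Camta1 on the same strand, so its reads are less certain. In microglia-like cells Tef stood at 43.6, 34.9, 35.5 and 40.1 CPM, with a stroke ratio of -0.31 (-0.57 to -0.069), and Per3 at 11.4 to 13.9 CPM with no neighbours apart. Ciart, a repressor of CLOCK and BMAL1, and Per2 were thinly counted, with at most 3.99 CPM in either class, and their libraries did not differ beyond counting error.

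The positive limb was lower in the same endothelial-like cells. Arntl stood at 101 CPM (202 UMIs), 81.5, 70.7 and 73.2 CPM in sham isotype, stroke isotype, anti-VCAM1 and anti-VLA4, and only the sham isotype and stroke isotype neighbours differed, by -0.30 (-0.60 to -0.014), or -0.33 without cells of shared barcodes and -0.17 with cells classed one by one. Genes spanning 100 kb had a fitted stroke ratio of -0.13 and those of 10 kb 0.081, and with that trend removed Arntl was also -0.17. Clock stood at 151, 129, 116 and 108 CPM, a steady order in which no neighbours differed. In microglia-like cells both were level: Arntl at 26.4, 27.8, 29.2 and 29.4 CPM and Clock at 97.8, 101, 97.6 and 102 CPM. Arntl plus Clock gave a stroke ratio of -0.25 (-0.44 to -0.07) in endothelial-like and 0.049 (-0.090 to 0.19) in microglia-like cells. These sums keep the trend with gene length. In microglia-like cells the fitted stroke ratio was -0.043 for genes of 100 kb and -0.030 for those of 10 kb.

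**Figure D2:**
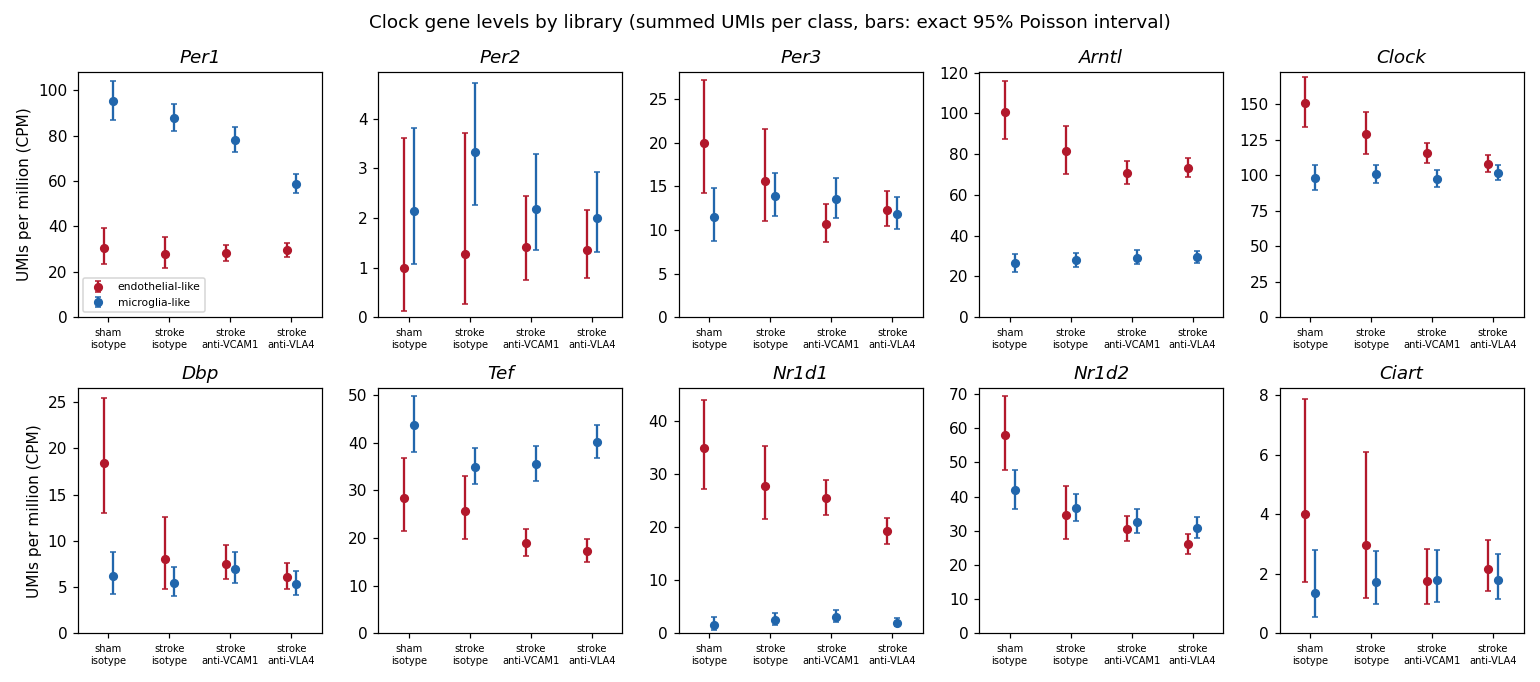
CPM of each clock gene in the 4 libraries (horizontal axis) for endothelial-like (red) and microglia-like (blue) cells, with exact 95% Poisson intervals as bars. Dbp and Nr1d2 are highest in sham isotype endothelial-like cells, and Per1 in microglia-like cells runs from 95.1 to 58.7.

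Anti-VCAM1 and anti-VLA4 were each compared with stroke isotype to ask how blocking the adhesion pair bore on these genes, and both comparisons share that library. In endothelial-like cells 0 of 9 measured genes passed 1.5-fold under anti-VCAM1 and 0 of 10 under anti-VLA4. Over all genes 9.99% were at least 1.5-fold lower and 3.18% higher under anti-VCAM1, and 11.7% lower and 3.15% higher under anti-VLA4. Under anti-VLA4, 4 of 10 had intervals below 0: Tef at -0.55 (-0.99 to -0.14), Nr1d1 at -0.51 (-0.93 to -0.12), Nr1d2 at -0.40 (-0.77 to -0.045) and Clock at -0.26 (-0.44 to -0.076). Over all genes in that comparison, 22.3% had an interval below 0 and 12% above. Thinned to 1000 UMIs per cell, Tef turned to 0.22 and Nr1d1 was -1.08. TMM scaling left Nr1d2 at -0.24, and Clock turned with gene length as given below. Under anti-VCAM1 none of the 9 had an interval that excluded 0, where 21% of all genes had one below and 11.6% above, and the lowest ratios were -0.52 for Ciart and for Per3.

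The endothelial-like blockade ratios moved with gene length and scaling. Genes spanning 100 kb had a fitted ratio of -0.29 under anti-VCAM1 and -0.31 under anti-VLA4, while those of 10 kb had 0.14 and 0.12. Arntl spans 106662 bases and Clock 94925. With that trend removed, Arntl was 0.10 under anti-VCAM1 and 0.17 under anti-VLA4, and Clock was 0.042 under anti-VLA4. TMM scaling subtracts a shift of -0.145 and -0.162 from all ratios in these comparisons, which left Arntl at -0.057 and 0.0089. Neat1, a nuclear RNA, stood at 198, 146, 110 and 98.0 CPM in the same libraries, and its part was not tested. In endothelial-like clusters, Clock was 68.3 CPM in cluster 4 (Malat1 4509 CPM) and 154 CPM in cluster 0 (Malat1 29351 CPM), while Nr1d1 was 25.6 and 23.1 CPM.

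In microglia-like cells Per1, an immediate early member of the PER family, had an interval below 0 under both blockades. It stood at 95.1 CPM (491 UMIs) in sham isotype, 87.7 CPM (819) in stroke isotype, 78.0 CPM (790) in anti-VCAM1 and 58.7 CPM (789) in anti-VLA4. The first pair of neighbours did not differ and the other two did. The ratio was -0.17 (-0.31 to -0.026) under anti-VCAM1 and -0.57 (-0.72 to -0.44) under anti-VLA4, just short of 1.5-fold. Thinned to 1000 UMIs per cell, Per1 was 96.8 CPM in stroke isotype and 56.1 CPM in anti-VLA4, past 1.5-fold lower. Nr1d2 also had an interval below 0 under anti-VLA4, at -0.24 (-0.46 to -0.040), but was 0.0071 with the same thinning. The share of all genes with such an interval was not taken in this class. With all UMIs, 0 of 10 genes passed 1.5-fold under anti-VCAM1, where 1.72% of all genes were lower and 2.36% higher by that much. Under anti-VLA4 the count was also 0 of 10, with 2.64% and 2.37%. Per1 in endothelial-like cells was 30.4, 27.9, 28.3 and 29.5 CPM, and its anti-VLA4 ratio was 0.66 above that in microglia-like cells (0.26 to 1.07).

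A list of 17 stress and immediate early genes, such as Jun, Klf2 and Jund, ran in the same order as Per1 in microglia-like cells. Its summed level was 17300 CPM in sham isotype, 14171 in stroke isotype, 11132 in anti-VCAM1 and 9525 in anti-VLA4. Under anti-VLA4, 6 of the 17 were at least 1.5-fold lower and 0 higher, with a median of -0.54 beside 0.056 over all genes. The shares of all genes were 2.64% lower and 2.37% higher. In endothelial-like cells the list held 5603, 4962, 6170 and 6113 CPM. Among microglia-like clusters the match was partial. Clusters 2 (Per1 109 CPM, stress list 20570 CPM), 7 (69.3 and 14648), 12 (65.8 and 11291), 1 (63.2 and 7718) and 9 (35.5 and 3618) shared 1 order. Clusters 22 (57.9 and 11049 CPM) and 19 (10.0 and 4058 CPM) departed from it. So did cluster 5, where Per1 was highest (115 CPM) with a stress list of 9994 CPM. Cluster 5 also had the most Malat1 of these clusters (58426 CPM) and a median of only 2231 UMIs per cell. With the cluster makeup of the stroke isotype library given to both libraries, the Per1 ratio under anti-VLA4 was -0.25. The part of the stress genes in the Per1 difference was not tested. Cry1, a partner of the PER proteins named here after its values were seen, was 46.3, 50.01, 38.6 and 28.3 CPM in microglia-like cells, a ratio of -0.80 (-1.02 to -0.63) under anti-VLA4.

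**Figure D3:**
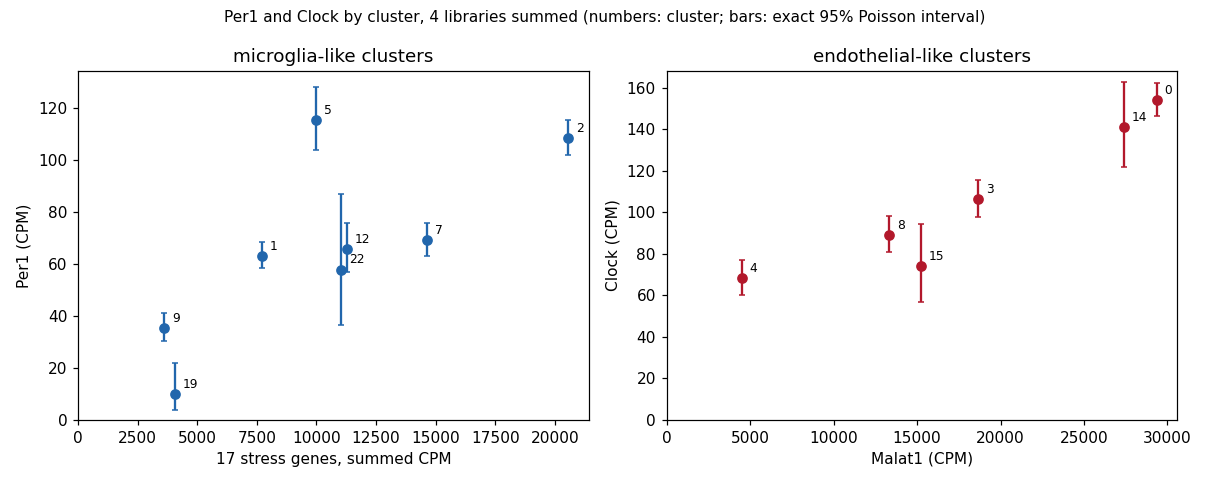
Left, Per1 (CPM) against the summed CPM of 17 stress genes in each microglia-like cluster. Right, Clock (CPM) against Malat1 (CPM) in each endothelial-like cluster. Points are clusters with the 4 libraries summed, numbered by cluster, and bars are exact 95% Poisson intervals. Cluster 2 is at 109 and cluster 9 at 35.5 on the left, and cluster 0 at 154 and cluster 4 at 68.3 on the right.

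Other lists were read the same way. Of 13 other clock genes measured in endothelial-like cells for stroke, 0 were lower and 1 (Arntl2, 19 against 7 UMIs) higher by 1.5-fold, with 12 of 13 ratios below 0. The shares of all genes were 4.55% lower and 5.41% higher. Under anti-VLA4, 3 of 16 were lower (Arntl2, Bhlhe41 and Usp2) and 1 higher there, beside 11.7% and 3.15% of all genes. The higher one was Nfil3, a D-box repressor, at 2.11 CPM (5 UMIs) in stroke isotype and 6.92 CPM in anti-VLA4. Bhlhe41 and Usp2 stood far higher in microglia-like cells. Summed microglial markers in endothelial-like cells were 397 CPM in stroke isotype and 144 CPM in anti-VLA4, and their part was not tested. In microglia-like cells 1 of 12 was lower for stroke, Hlf, at 29.3 against 18.4 CPM, and 1 higher, Bhlhe40, with 0 UMIs in sham isotype. The shares of all genes there were 2.93% lower and 3.31% higher. Arntl2, Nfil3, Hlf, Bhlhe40, Dnajb1 and the other genes listed beside such counts were named after their values were seen. Of 10 glucocorticoid-responsive genes, such as Mt1, Cdkn1a and Sgk1, 0 passed 1.5-fold for stroke in endothelial-like cells, 3 were lower under anti-VCAM1 (Fkbp5, Zbtb16 and Errfi1) and 2 under anti-VLA4 (Fkbp5 and Errfi1). Of all genes there, 9.99% were lower under anti-VCAM1 and 11.7% under anti-VLA4. Most of the list lay the other way by less than 1.5-fold: 6 of the 10 had intervals above 0 and 3 below under each blockade. Of all genes, 11.6% and 12% had intervals above 0, and 21% and 22.3% below. The list median was 0.24 under each, beside -0.078 and -0.088 over all genes. In microglia-like cells 2 of the 10 were higher under anti-VCAM1, Cdkn1a and Ddit4, beside 2.36% of all genes. Of 6 temperature-responsive genes, such as Hspa8, Hsp90aa1 and Rbm3, 1 was lower for stroke in endothelial-like cells, Dnajb1, at 52.9 against 33.8 CPM, beside 4.55% of all genes. Under blockade there, 2 were higher under anti-VCAM1 (Hsph1 and Dnajb1) and 1 under anti-VLA4 (Dnajb1), with 0 lower. The shares of all genes higher were 3.18% and 3.15%. In microglia-like cells Hsph1 was higher for stroke, beside 3.31% of all genes. Hsph1 and Dnajb1 were lower there under anti-VCAM1, beside 1.72%, and 0 of 6 passed under anti-VLA4.

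The 8 E-box genes were also summed as an arm (all but Arntl and Clock). In endothelial-like cells the arm stood at 195, 144, 125 and 114 CPM in sham isotype, stroke isotype, anti-VCAM1 and anti-VLA4, and every pair of neighbours differed. The stroke ratio was -0.44 (-0.65 to -0.22), and -0.46 without cells of shared barcodes. The ratios under anti-VCAM1 and anti-VLA4 were -0.21 (-0.38 to -0.030) and -0.34 (-0.51 to -0.16), or -0.063 and -0.17 with TMM scaling. In microglia-like cells the arm stood at 203, 186, 174 and 153 CPM in the same order. The stroke ratio was -0.13 (-0.24 to -0.014). Anti-VCAM1 gave -0.099 (-0.20 to -0.0029) and anti-VLA4 gave -0.29 (-0.38 to -0.20). Leaving out Per1 gave -0.13 (-0.29 to 0.020), -0.040 (-0.17 to 0.091) and -0.069 (-0.19 to 0.054) for the same comparisons, all with intervals across 0. These 2 classes had the summed arm in the same order of libraries, though the microglia-like stroke ratio turned to 0.081 as the mean of the 8 genes' ratios. T-cell-like cells had another order, sham isotype, anti-VCAM1, stroke isotype and anti-VLA4, with a stroke ratio of -0.51 (-0.89 to -0.14). In cluster 6 the arm was -0.75 (-1.26 to -0.26) for stroke and 0.18 (-0.24 to 0.63) under anti-VCAM1. In sham isotype, Per1 held 491 of 1049 microglia-like and 61 of 391 endothelial-like arm UMIs. The arm's stroke ratio in endothelial-like cells minus that in microglia-like cells was -0.31 (-0.55 to -0.075), while the differences for anti-VCAM1 and anti-VLA4 had intervals across 0.

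A count of arm UMIs per UMI of Arntl plus Clock compares the limbs within the same cells and needs no scaling of libraries. It does not remove the trend with gene length given above for endothelial-like cells. Arntl and Clock span 106662 and 94925 bases, and the arm genes 3749 to 43343. The count was 0.776 (0.678 to 0.887) in sham isotype, 0.683, 0.669 and 0.629 (0.588 to 0.672) in anti-VLA4 endothelial-like cells, and each neighbouring pair overlapped. In microglia-like cells it was 1.64 (1.48 to 1.81), 1.45, 1.37 and 1.16 (1.09 to 1.24). Without Per1 the microglia-like values were 0.871 (0.776 to 0.977), 0.767, 0.755 and 0.715 (0.665 to 0.769), and the endothelial-like ones 0.655, 0.551, 0.517 and 0.466. In cluster 6 it was 0.735 (0.559 to 0.962) in sham isotype, 0.394 (0.282 to 0.544) in stroke isotype, then 0.583 and 0.519. A lower arm stood with a lower Arntl in endothelial-like cells and with a level Arntl in microglia-like cells. Under anti-VCAM1 the limbs lay on opposite sides of 0 in T-cell-like cells and cluster 6, but both below 0 in cluster 11. In T-cell-like cells Arntl was -0.74 (-1.53 to -0.046) and Arntl plus Clock -0.55 (-1.06 to -0.075). The arm there was 0.17 (-0.23 to 0.57), and 0.61 (0.066 to 1.17) without Per1. In cluster 6, Arntl plus Clock was -0.38 (-0.66 to -0.0997) and the arm 0.18 (-0.24 to 0.63). In cluster 11, Arntl plus Clock was -0.77 (-1.44 to -0.17) and the arm -0.61 (-1.21 to -0.071).

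**Figure D4:**
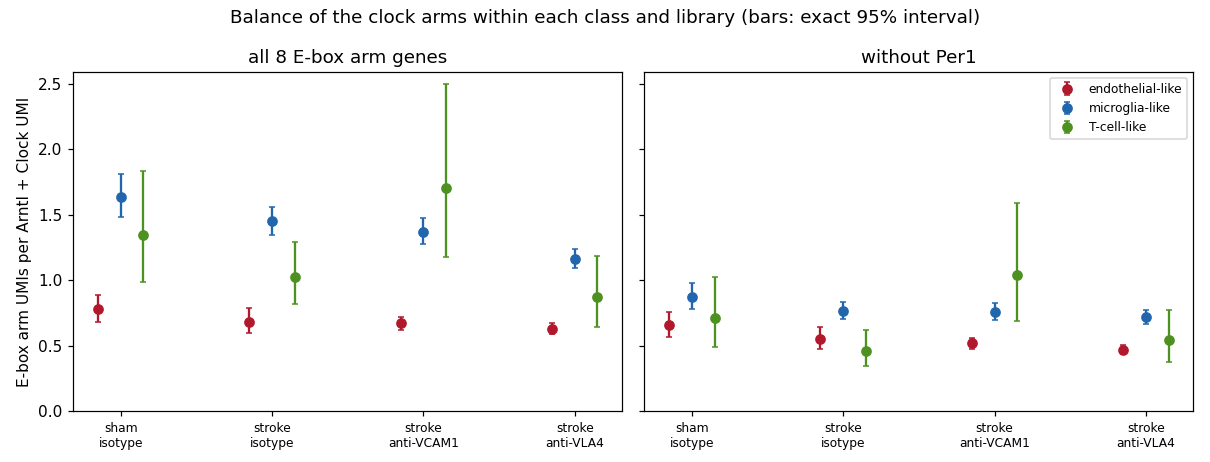
UMIs of the 8 E-box genes (left) or of 7 without Per1 (right) per UMI of Arntl plus Clock, by library, for endothelial-like (red), microglia-like (blue) and T-cell-like (green) cells, with exact 95% intervals. Microglia-like values run from 1.64 to 1.16 with Per1 and from 0.871 to 0.715 without it.

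T-cell-like cells gave 5 measured genes. Tef and Nr1d2 were at least 1.5-fold lower for stroke (19.6% of all genes lower, 9.68% higher), Arntl under anti-VCAM1 (11.8% and 9.95%), and Per1 and Tef under anti-VLA4 (14.3% and 7.56%). Arntl under anti-VCAM1 was -0.74 (-1.53 to -0.046), but 0.058 with cells thinned to 1000 UMIs, and Per1 under anti-VLA4 was -0.91 (-1.57 to -0.32). The Tef and Nr1d2 ratios had intervals across 0. Per1 stood at 84.1, 68.8, 54.6 and 36.1 CPM, and the 10 highest cells held 60.4% of its sham isotype UMIs. Arntl stood at 52.6, 62.4, 37.0 and 47.8 CPM. Summed microglial markers in these cells were 3291, 1027, 2047 and 425 CPM in the same libraries, and the part of that RNA in these levels was not tested. The stress list there held 6172, 3806, 4477 and 2893 CPM.

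**Figure D5:**
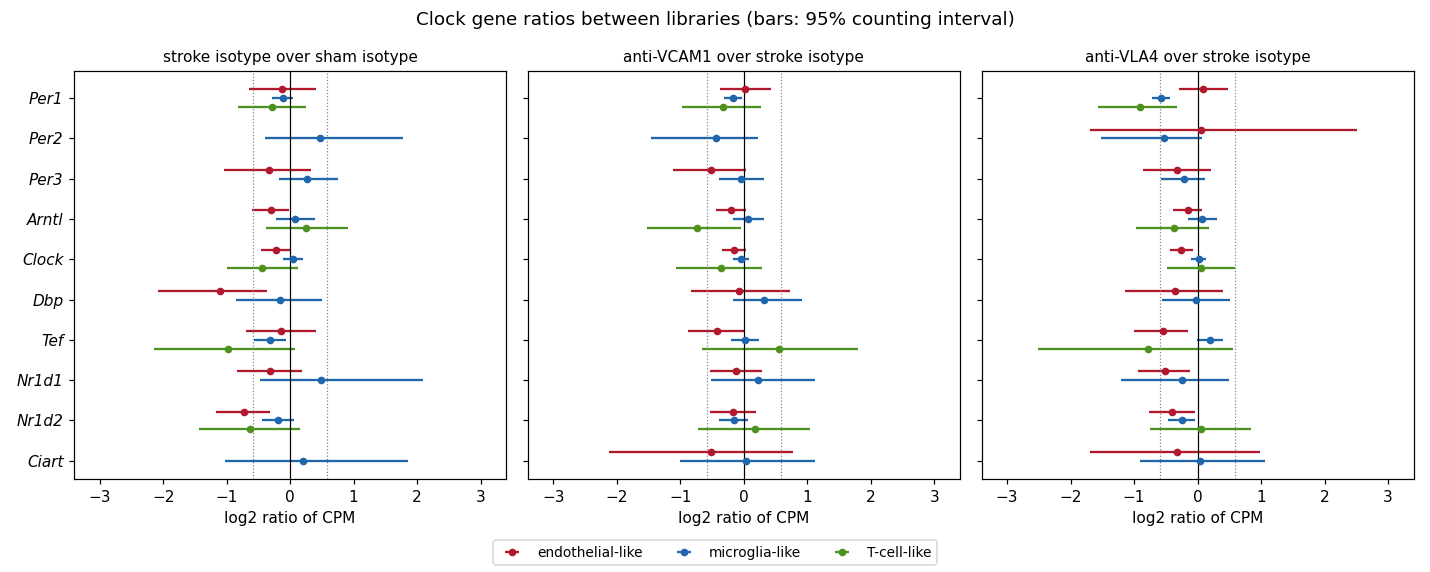
Log2 ratios of CPM for genes with at least 20 UMIs over the pair of libraries, for stroke isotype over sham isotype and for each blockade over stroke isotype, with 95% counting intervals. Dotted lines mark 1.5-fold, and Dbp at -1.11 and Nr1d2 at -0.72 lie beyond it in endothelial-like cells of the first panel.

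Genes with the pattern most like the arm were sought over 8 points, the 4 libraries in each of the 2 main classes, centred within a class. The arm pattern was the mean of Per1, Per3, Nr1d2 and Tef, the genes with at least 20 UMIs at every point. Of 180 candidate genes, 10 had a Pearson r of at least 0.9. The 6 highest were Lmbr1l (0.955), Fosb (0.934), Htr1f (0.932), Neat1 (0.931), Gm19951 (0.928) and Slc22a5 (0.918), and the 3 lowest were Dnal4 (-0.922), Polr2l (-0.916) and Ndufa3 (-0.915). Rora had 0.981 and Csnk1d 0.940, but varied too little to be candidates. The points share libraries and their depth, so these values describe these 4 libraries only.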

How the data were processed

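The counts are the deposited UMI counts per gene and barcode from 10x 3' v3.1 libraries, whose headers name Cell Ranger 7.0.1, while the submitters' processing notes name Cell Ranger 6.0.0, Seurat 4.3.0.1 and the builds mm10 and GRCh38. The use of introns, the annotation and the strand setting are not given in the sources used here. Barcodes with at least 500 UMIs, 200 genes and at most 10% mitochondrial UMIs were kept, and 9, 24, 58 and 124 doublets marked by Scrublet were removed. Cells were clustered on 30 principal components of 2000 variable genes (scanpy 1.11.5, Leiden resolution 1), leaving out 187 genes, among them the clock, stress and other lists. Summed UMIs gave CPM with exact Poisson intervals. Ratios used a pseudocount of 1 CPM and exact conditional binomial intervals. With 1 library per group no test between groups was made. A gene was counted as higher or lower at 1.5-fold with at least 20 UMIs over the pair. All 10 clock genes are reported. From other lists, up to 6 or 3 genes with the most UMIs were named, except 1 that is not reported here, together with the genes most and least like the arm. The genes and lists were chosen with earlier results of these data known. The ratio intervals were tested on simulated data. Coverage in a simulated set at first fell short of a flat limit, which was then replaced, with the outcome known, by an exact binomial test of coverage below the nominal level, and that test was passed. Alternatives covered cell naming, clustering, filters, doublets, thinning, scaling, pseudocount, cluster makeup and gene span.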

Additional observations from a re-analysis of the deposited data

How the results depend on the processing

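No paired analysis was possible because each group is 1 library, so no replicate could be left out either. Over 303 recomputed values of the arm, Arntl and the counts of genes past the fold, 284 were unchanged, 17 moved and 2 reversed. For a ratio, unchanged means within its counting error, while a count of genes has no such interval. Over 906 other recomputed values, 879 were unchanged, 24 moved and 3 reversed. The arm in microglia-like cells was 0.081 for stroke as a mean of 8 ratios, -0.0019 for anti-VCAM1 and -0.15 for anti-VLA4 with the stroke isotype cluster makeup, and -0.069 for anti-VLA4 without Per1. With the gene span trend removed, endothelial-like Arntl was 0.10 (anti-VCAM1) and 0.17 (anti-VLA4), and Clock 0.042 (anti-VLA4). Thinned to 1000 UMIs per cell, Arntl in T-cell-like cells was 0.058 (anti-VCAM1), the arm there -1.17 (anti-VLA4), Nr1d2 in microglia-like cells 0.0071 and Tef in endothelial-like cells 0.22 (both anti-VLA4). With the same thinning, Nr1d1 in endothelial-like cells was higher in stroke isotype than in sham isotype. Per1 in microglia-like cells was then past 1.5-fold lower under anti-VLA4. Without Per1, the T-cell-like arm was 0.61 (anti-VCAM1) and 0.084 (anti-VLA4). At 2-fold, 1 clock gene passed in endothelial-like cells for stroke and 0 in T-cell-like cells in each comparison. With no minimum of UMIs, 5 passed in T-cell-like cells in each comparison, and with a minimum of 50 UMIs 1 passed for stroke and 1 for anti-VLA4. The share of all genes was taken only at 1.5-fold with at least 20 UMIs, so these counts have no share beside them. The cause of the changed values was not tested. Leaving out shared barcodes and adding cluster 6 were chosen after seeing the data. Depth limits Per2, Ciart, Dbp and, outside endothelial-like cells, Nr1d1.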
